A study of Mus musculus with 46 samples.

Results

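DNA replication and mitosis genes were followed across every group of a mouse series on Falcor, a long noncoding RNA. The set held 51 listed genes, matched by symbol to the 55774 rows of the table of inducible hairpin lines and to the 56775 rows of the table of conventional hairpin lines, and all 51 were present. By role, 28 members act in DNA replication and 23 in mitosis. In the first experiment, AML12 cells, an immortalized mouse hepatocyte line, carried an inducible hairpin labelled shLinc or an inducible control hairpin (shCtrl). Each line was sequenced without doxycycline, with doxycycline (the drug that switches such hairpins on) and in a state labelled Restored, with 3 libraries per group. The sample titles name these states NoDox, DoxPlus and DoxMinus, in that order. The shLinc hairpin was taken as the Falcor hairpin from the tag of the characteristics field. In the second experiment, AML12 cells carried a conventional hairpin against Falcor (shFalcor), against the mRNA export factor ZC3H11A (shZC3H11A), or the control hairpin (shCtrl), with 3 libraries each. Liver came from Falcor knockout (KO) mice and controls (Ctrl), with 4 KO and 4 Ctrl livers on the diet labelled NCD, and 6 KO and 5 Ctrl livers on the diet labelled HFD. The labels give no clone, vector, dose, duration, allele, age or cell cycle state, and each inducible comparison between hairpins is also a comparison between separate cell lines.

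A dividing cell copies its DNA once and then separates the copies. In G1 the origin complex, Cdc6 and Cdt1 load the Mcm helicase, and in S phase Cdc45 and the GINS proteins switch the helicase on, while polymerases held by the Pcna clamp copy each strand from a pool of deoxynucleotides. Cyclin E and the E2F transcription factors drive entry into S phase. Later, cyclin A and cyclin B with Cdk1 bring about mitosis, the spindle checkpoint holds back the ligase activated by Cdc20, and separase (Espl1) cuts the ring that ties sister chromatids together. Many replication genes are known targets of E2F factors, and many mitosis genes are known targets of the DREAM and MuvB complexes with Mybl2 and Foxm1, which act through the cell cycle genes homology region, or CHR. Most hepatocytes of an adult liver rest outside the cycle, whereas AML12 cells divide in culture.

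Promoter letters differed in how often they stood in replication and mitosis members, a description for which no test was made. RefSeq (GRCm38.p6) held a promoter window, 250 bases before to 50 after the start, for 23 replication members and 18 mitosis members. The E2F letters TTTCCCGC, TTTGGCGC, TTTCGCGC and TTTGCCGC, searched on both strands, stood in at least 1 window of 11 of the 23 replication members (47.8%) and of 1 of the 18 mitosis members (5.56%), against 2.26% of all 32851 windows. The CHR letters TTTGAA stood in 3 replication members (13%) and 13 mitosis members (72.2%), against 17.9% of all windows. The short letters CCAAT stood in 56.5% of replication members, 88.9% of mitosis members and 37.4% of all windows. A gene with several starts had several chances to match, and these matches are descriptions of letters, not of binding. The lines below give the bases just before the start of 3 replication members and 5 mitosis members, chosen to show both kinds of letters, each 5′ to 3′ on the strand of its gene and with the E2F and CHR letters of either strand in capitals. Overlapping matches of opposite strands form 1 longer run in Mcm6.
Mcm6 (chr1:128359706-128359855, minus strand): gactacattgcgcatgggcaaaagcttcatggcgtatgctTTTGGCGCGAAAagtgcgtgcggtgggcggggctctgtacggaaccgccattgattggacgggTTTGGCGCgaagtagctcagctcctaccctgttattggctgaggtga
Cdc6 (chr11:98908001-98908150, plus strand): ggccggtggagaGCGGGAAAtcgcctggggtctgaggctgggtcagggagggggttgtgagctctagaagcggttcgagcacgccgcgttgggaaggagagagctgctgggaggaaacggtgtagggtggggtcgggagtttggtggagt
Rfc3 (chr5:151651209-151651358, minus strand): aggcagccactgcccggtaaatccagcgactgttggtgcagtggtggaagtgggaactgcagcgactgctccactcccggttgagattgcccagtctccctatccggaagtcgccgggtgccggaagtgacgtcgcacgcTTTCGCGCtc
Cdk1 (chr10:69352913-69353062, minus strand): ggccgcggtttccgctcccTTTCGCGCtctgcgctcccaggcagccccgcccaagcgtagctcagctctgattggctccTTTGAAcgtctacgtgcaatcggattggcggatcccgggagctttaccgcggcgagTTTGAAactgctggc
Cdc20 (chr4:118437344-118437493, minus strand): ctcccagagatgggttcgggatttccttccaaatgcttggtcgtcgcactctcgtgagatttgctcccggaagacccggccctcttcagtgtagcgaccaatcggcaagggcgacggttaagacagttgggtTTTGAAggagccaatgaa
Kif11 (chr19:37376232-37376381, plus strand): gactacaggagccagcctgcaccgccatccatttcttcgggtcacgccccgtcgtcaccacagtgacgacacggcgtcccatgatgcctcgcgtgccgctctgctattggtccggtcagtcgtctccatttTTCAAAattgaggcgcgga
Top2a (chr11:99024190-99024339, minus strand): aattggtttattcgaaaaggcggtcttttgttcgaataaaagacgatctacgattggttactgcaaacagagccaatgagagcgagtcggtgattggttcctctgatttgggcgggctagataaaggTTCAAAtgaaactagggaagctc
Espl1 (chr15:102296143-102296292, plus strand): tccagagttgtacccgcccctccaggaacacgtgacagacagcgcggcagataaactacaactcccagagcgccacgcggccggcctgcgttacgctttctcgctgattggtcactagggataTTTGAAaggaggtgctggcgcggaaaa

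Falcor, listed as 9030622O22Rik, was low in the inducible lines. Its deposited values were 12, 9 and 10 in shLinc against 4, 6 and 5 in shCtrl without doxycycline, 2, 2 and 3 against 5, 4 and 5 with doxycycline, and 11, 9 and 11 against 5, 4 and 5 in the Restored state. Falcor was therefore below control in shLinc with doxycycline and above control in both other states. In the conventional lines it had 7, 4 and 5 counts under shFalcor and 4, 3 and 6 under shZC3H11A, against 38, 11 and 24 in shCtrl, so it was low under both hairpins. Zc3h11a had 33, 64 and 33 counts under shZC3H11A and 239, 155 and 374 under shFalcor, against 558, 375 and 359 in shCtrl. Falcor was listed at 0 in all KO livers. Of 11 hepatocyte markers, 9 were above 0 in every inducible group, whereas Ahsg and Fgb were at 0. Columns summed to 859568 to 883564 in the inducible table, 833910 to 872375 in NCD and 918867 to 975752 in HFD, and the depth behind these normalized values is unknown. The conventional libraries held 4474760 to 8837581 counts.

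Replicate 1 of untreated shCtrl stood apart from the other libraries of its group. Its deviations from the group mean followed transcript length across 9582 genes (Spearman −0.67 across genes), and its members with long transcripts were low, with Mki67 at 7 against 15 and 16 in the other 2 libraries and Top2a at 30 against 50 and 50. Where untreated shCtrl is compared, total counts of called members are therefore given with and without it. So are the values of called members described with their fold that it moves by more than 1.5 times. All inducible libraries share 1 fit, so this library also enters the SE and p of the other inducible comparisons. Those were not repeated without it. Calls lost there on leaving out another library may partly reflect it. Values of the inducible and liver tables are whole numbers scaled by TMM (trimmed mean of M-values) before testing. Fold changes compare log2(value + 1), so they are too small for low genes, and rounding also makes the spread of low genes too small. Leaving out this scaling shifted the median of all genes by 0.18 in the untreated hairpin comparison, 0.15 in the Restored one, −0.20 for doxycycline in shLinc and 0.17 for Restored against doxycycline in shLinc, so changes are given relative to the bulk of genes. A member was called where its limma or edgeR p, adjusted over all genes of the comparison by the Benjamini-Hochberg method, was below 0.05.

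Without doxycycline, replication and most mitosis genes were lower in shLinc than in shCtrl. Of 50 members tested, 43 fell and 0 rose, whereas 35.1% of all 9877 genes tested fell and 30.2% rose. At an unadjusted limma p below 0.05, 2 members were higher. The median member was at −0.72 on the log2 scale, against −0.01 for all genes. Cenpe was the 1 member below the filter. All 43 calls also held without replicate 1 of untreated shCtrl, with a median of −0.72. In these bulk libraries, fewer cells in S phase or mitosis and less RNA per cycling cell cannot be told apart.

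The helicase genes moved together in the untreated comparison. All 12 fell, with a median of −0.85. Mcm5, a subunit of the helicase ring (chromosome 8, 75109569 to 75128439 in GRCm38, plus strand), had deposited values of 73, 73 and 75 in shLinc against 124, 134 and 138 in shCtrl. Mcm3, another subunit, had 56, 56 and 57 in shLinc against 92, 109 and 117 in shCtrl. The groups did not overlap for either gene, and the folds were −1.02 and −1.08. Cdc6, the loader, fell to 5.44 ± 0.105 in shLinc, against 12.8 ± 0.638 in shCtrl (scaled mean ± SD, n = 3 each; −1.09 ± 0.05 SE, limma adjusted p = 6.90e-12). Of the 9 fork genes 8 fell. The clamp gene Pcna had 91, 90 and 92 in shLinc against 140, 146 and 140 in shCtrl, and the clamp loader gene Rfc3 fell by 1.09 ± 0.10 (limma adjusted p = 9.15e-08). Pola1, the catalytic subunit of the priming polymerase, was not called at 0.07.

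The 4 genes of deoxynucleotide supply fell by unequal amounts. Tk1, thymidine kinase of the salvage path, fell by 1.02 and Tyms, thymidylate synthase, by 0.89. Of the ribonucleotide reductase subunits, Rrm1 fell by 0.47 and Rrm2 by only 0.15. Rrm2 had 232, 237 and 242 in shLinc against 221, 237 and 233 in shCtrl, ranges that overlap before scaling, and without scaling its sign turned. The G1 to S regulators all fell. Ccne1, which encodes cyclin E1, had 7, 7 and 6 in shLinc against 14, 14 and 14 in shCtrl (−1.14 ± 0.07, limma adjusted p = 1.71e-10), and E2f1 had 13, 13 and 14 against 22, 21 and 22.

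Mitosis members split in the untreated comparison, with 16 of 22 lower. The largest fall of any member was that of Mybl2, the MuvB partner B-Myb, at 9.68 ± 0.675 in shLinc against 25.15 ± 0.0898 in shCtrl (−1.29 ± 0.06, limma adjusted p = 4.45e-12). Foxm1 had 20, 20 and 20 in shLinc against 25, 34 and 35 in shCtrl. All 10 cyclins, kinases and ligase parts fell, with a median of −0.57. Cdk1 had 102, 106 and 104 in shLinc against 166, 152 and 154 in shCtrl, and Plk1, a kinase of spindle assembly, had 61, 64 and 63 against 81, 89 and 88. Ccnb1, which encodes cyclin B1, had 46, 51 and 51 in shLinc against 55, 67 and 66 in shCtrl, and Cdc20 had 59, 55 and 60 against 68, 70 and 72. These groups did not overlap. The spindle and kinetochore genes were less uniform, with 4 of 8 lower, of which Birc5, survivin of the chromosomal passenger complex, fell by 0.95. Bub1, Ttk, Kif11 and Cenpf were not called, at 0.12, −0.01, 0.16 and 0.08. Mki67, which coats mitotic chromosomes, had 16, 17 and 15 in shLinc against 7, 15 and 16 in shCtrl. Top2a, the topoisomerase that untangles sister DNA, had 55, 60 and 55 in shLinc against 30, 50 and 50 in shCtrl. The groups overlapped for Mki67, while all shLinc libraries were above all shCtrl libraries for Top2a before scaling. Neither was called, at 0.21 and 0.23, and without replicate 1 of untreated shCtrl they were at −0.10 and 0.03. Cenpf was then at −0.10 and also not called.

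**Figure D1:**
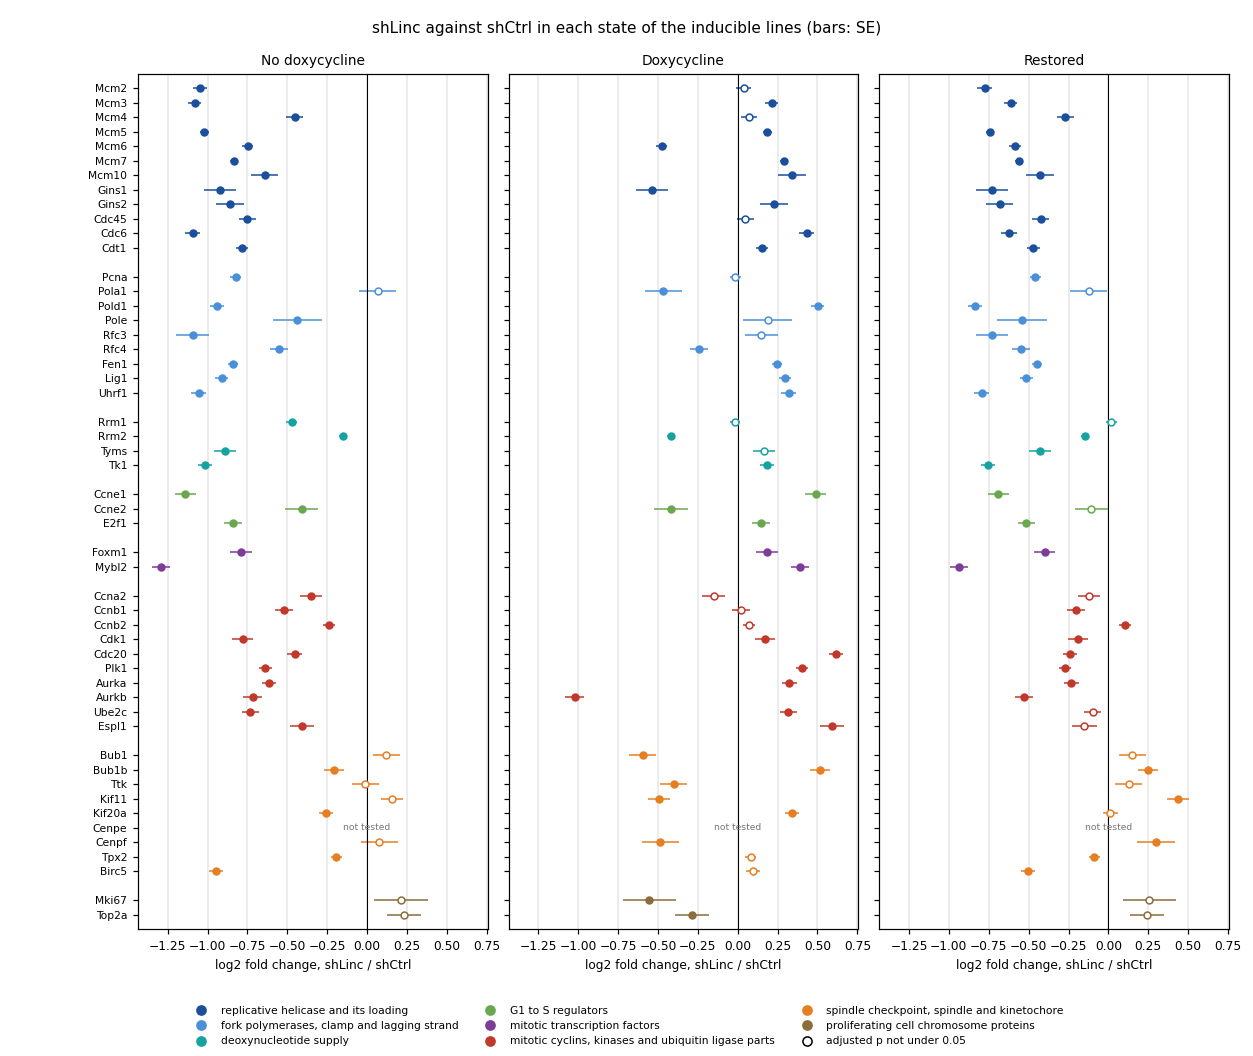
Log2 fold change of shLinc over shCtrl (x axis) for each member (rows, coloured by role) without doxycycline, with doxycycline and in the Restored state. Bars are standard errors and filled points have a limma adjusted p below 0.05. Points lie left of 0 for 43 called members without doxycycline, on both sides with doxycycline, and mostly left again in the Restored state.

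Genes outside the members moved in the same direction. Of 46 other replication genes tested, 38 fell and 2 rose in untreated shLinc (median −0.49), and of 55 other mitosis genes 38 fell and 2 rose (median −0.37). Chaf1b, a chromatin assembly factor, fell by 0.73 and Rfc5 by 0.94. Among 10 genes of G1 cyclins, kinases and mitogen response 9 fell, with Ccnd1, which encodes cyclin D1, at 219 ± 3.47 in shLinc against 458 ± 30.1 in shCtrl (−1.06). Of 27 brakes on the cell cycle, 10 rose and 10 fell. Cdkn1a, which encodes the cyclin-dependent kinase inhibitor p21, fell by 0.59 and Trp53 fell by 0.69, whereas Btg2, an antiproliferative gene, rose by 0.80. Fold change also followed transcript length in this comparison (Spearman 0.39 across 9582 genes and 0.33 across the 50 members). The same trend across all genes was 0.29 in the Restored hairpin comparison and 0.28 for doxycycline in shCtrl. For the hairpin difference it was −0.35 from none to doxycycline and −0.29 from Restored to doxycycline. The part of length in these results was not tested. Summed hepatocyte markers were 4912 to 4999 in untreated shLinc and 5501 to 5879 in untreated shCtrl, while lymphocyte and endothelial markers were at 0 in both groups.

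Doxycycline raised most of these genes in both lines. In the shLinc line 49 of 50 members rose and 1 fell, against 38.6% and 35.6% of all genes, with a median of 1.10. In the shCtrl line, which carries no Falcor hairpin, 39 rose and 7 fell, against 34.0% and 32.5% of all genes, with a median of 0.37. Without replicate 1 of untreated shCtrl, 39 rose and 6 fell, with Cdc20 the 1 call lost. All replication members rose in shLinc, and 26 of 28 in shCtrl.

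The members that rose most differed between the lines. In shLinc they were Ccne1, Cdc6, Uhrf1 and Mybl2. Ccne1 had 33, 33 and 33 with doxycycline against 7, 7 and 6 without (2.35 ± 0.07, limma adjusted p = 3.48e-15). Cdc6 rose by 2.22 ± 0.05, Uhrf1, which recruits the maintenance DNA methyltransferase, by 1.99 ± 0.05, and Mybl2 by 1.98 ± 0.06 (limma adjusted p = 1.87e-16, 9.83e-16 and 4.03e-15). In shCtrl they were Mki67, Ccne2, Pola1 and Cenpf. Mki67 had 51, 54 and 54 with doxycycline against 7, 15 and 16 without (2.08 ± 0.17, limma adjusted p = 2.73e-08, and 1.77 ± 0.05 without replicate 1 of the untreated group). In shLinc Mki67 had 36, 35 and 36 against 16, 17 and 15. Every library with doxycycline was above every library without it in both lines. Ccne2, the second cyclin E gene, rose by 1.61 ± 0.11, Pola1 by 1.5 ± 0.12 and Cenpf, a kinetochore protein, by 1.45 ± 0.12 in shCtrl (limma adjusted p = 7.87e-10, 7.38e-09 and 1.10e-08), although these 3 had values of at most 12 and are exposed to rounding.

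The helicase rose under doxycycline in both lines, with medians of 1.41 in shLinc and 0.37 in shCtrl. Mcm5 had 184, 187 and 192 with doxycycline against 73, 73 and 75 without in shLinc, and 164, 166 and 166 against 124, 134 and 138 in shCtrl. Pcna had 215, 215 and 211 against 91, 90 and 92 in shLinc, and 213, 218 and 219 against 140, 146 and 140 in shCtrl. Rrm2 had 338, 325 and 338 against 232, 237 and 242 in shLinc, and 448, 449 and 446 against 221, 237 and 233 in shCtrl. The treated groups lay above the untreated ones for all 3 genes in both lines.

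Some mitosis members fell in shCtrl with doxycycline. They included Bub1b, a checkpoint kinase-like protein (−0.56 ± 0.07), Espl1 (−0.44 ± 0.08), the mitotic kinase gene Aurka (−0.20 ± 0.05) and Ccnb2 (−0.16 ± 0.04), with limma adjusted p of 9.45e-07, 9.72e-05, 0.00107 and 0.001004. The same 4 genes rose in shLinc, by 0.16, 0.56, 0.74 and 0.14, but Ccnb2 and Bub1b changed sign in shLinc without scaling, and the Bub1b call was lost without any 1 of the 6 shLinc libraries. The shared spread of Bub1b includes untreated shCtrl, with a scaled SD of 5.09, against 0.839 and 0.291 in shLinc with and without doxycycline. Plk1 had 104, 99 and 98 with doxycycline against 61, 64 and 63 without in shLinc, and 78, 77 and 73 against 81, 89 and 88 in shCtrl. Aurkb, the kinase of the chromosomal passenger complex, was the 1 member that fell in shLinc, with 26, 26 and 24 with doxycycline against 35, 34 and 38 without (−0.27 ± 0.06, limma adjusted p = 5.35e-04). In shCtrl it had 52, 50 and 56 against 49, 52 and 55 and was not called.

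**Figure D2:**
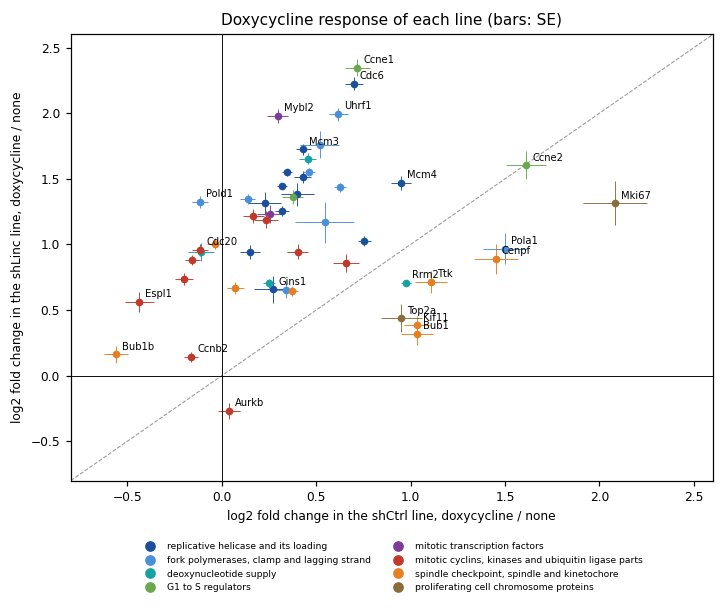
Log2 fold change of doxycycline over no doxycycline in the shLinc line (y axis) against the shCtrl line (x axis) for the 50 members tested, coloured by role. Bars are standard errors and the dashed line marks equal change. Replication members lie mainly above the line, Ccne1 at 2.35 against 0.72, whereas Mki67, Cenpf, Pola1, Bub1 and Kif11 lie below it, Mki67 at 1.31 against 2.08, or 1.77 without replicate 1 of untreated shCtrl.

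Other genes of the cycle followed under doxycycline. In shLinc 42 of 46 other replication genes rose and 1 fell, and 49 of 55 other mitosis genes rose and 0 fell. In shCtrl 35 rose and 2 fell, and 33 rose and 9 fell. Ccnd1 rose by 1.34 in shLinc and 0.76 in shCtrl. Of 27 brakes on the cell cycle 11 rose and 9 fell in shLinc, against 38.6% and 35.6% of all genes. In shCtrl 11 brakes rose and 10 fell, against 34.0% and 32.5% of all genes. Among them Btg2 fell by 2.46 in shLinc and 2.36 in shCtrl. Falcor itself fell by 1.59 in shLinc and was at −0.06 in shCtrl.

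Under doxycycline the difference between the hairpins was small and mixed. Of 50 members 24 rose and 13 fell in shLinc relative to shCtrl, against 25.4% and 27.0% of all genes, with a median of 0.15. Mcm5 had 184, 187 and 192 in shLinc against 164, 166 and 166 in shCtrl (0.19), and Pcna had 215, 215 and 211 against 213, 218 and 219 and was not called. E2f1 had 32, 30 and 31 in shLinc against 28, 29 and 27 in shCtrl (0.15), a call that was lost without replicate 1 or 3 of shCtrl or of shLinc. The largest increases were in mitosis and fork genes. Cdc20 had 94, 100 and 100 in shLinc against 65, 62 and 64 in shCtrl (0.62 ± 0.04, limma adjusted p = 7.30e-09). Espl1 had 17, 17 and 17 against 11, 11 and 11 (0.59 ± 0.08, limma adjusted p = 7.72e-06). Bub1b rose by 0.52 ± 0.07 and Pold1, the catalytic subunit of polymerase delta, by 0.50 ± 0.04 (limma adjusted p = 5.09e-06 and 5.92e-08).

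Among the members that fell in doxycycline-treated shLinc, Aurkb stood first (chromosome 11, 69045647 to 69051664, plus strand), with 26, 26 and 24 in shLinc against 52, 50 and 56 in shCtrl (−1.02 ± 0.06, limma adjusted p = 5.91e-10). Bub1 fell by 0.59 ± 0.08, Mki67 by 0.55 ± 0.17 and Gins1, a helicase cofactor, by 0.54 ± 0.10 (limma adjusted p = 1.79e-05, 0.0118 and 2.71e-04). Mki67 had 36, 35 and 36 in shLinc against 51, 54 and 54 in shCtrl, and Rrm2 338, 325 and 338 against 448, 449 and 446. Top2a had 66, 66 and 67 in shLinc against 80, 82 and 82 in shCtrl (−0.29), and its call was lost when any 1 of these 6 libraries was left out. The spread of Top2a in the shared fit includes untreated shCtrl, with a scaled SD of 10.05, against 0.361 in shLinc and 1.06 in shCtrl here. Replicate 1 of untreated shCtrl was not left out for this comparison, so the lost calls need not reflect these 6 libraries. Foxm1 had 41, 42 and 42 against 36, 36 and 38, and Ccnb1 80, 84 and 84 against 85, 79 and 81, with overlapping groups for Ccnb1 only. The Foxm1 call (0.18) was lost without any 1 library of these groups other than replicate 3 of shCtrl. Its shared spread also includes untreated shCtrl, with a scaled SD of 4.26, against 0.685 in shLinc and 1.13 in shCtrl here. Of other replication genes 14 rose and 12 fell, and of other mitosis genes 19 rose and 18 fell.

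The difference between hairpins itself changed with doxycycline. From none to doxycycline it rose for 39 members and fell for 9, against 33.9% and 31.0% of all genes, with a median of 0.94. Of these, 38 rises and 9 falls were called without replicate 1 of untreated shCtrl, with Gins1 the 1 call lost. The rise was largest for Mybl2 (1.68 ± 0.08), Ccne1 (1.63 ± 0.09), Cdc6 (1.53 ± 0.07) and Pold1 (1.44 ± 0.06), with limma adjusted p of 1.74e-11, 1.83e-10, 1.21e-11 and 4.84e-12. With all libraries, the largest falls were those of Mki67 (−0.77 ± 0.24), Bub1 (−0.71 ± 0.12), Kif11, the spindle motor (−0.65 ± 0.10), and Cenpf (−0.56 ± 0.17), with limma adjusted p of 0.0102, 5.59e-05, 2.04e-05 and 0.00689. This order rested on replicate 1 of untreated shCtrl. Without it Bub1 came first at −0.65 ± 0.11, before Kif11 at −0.55 ± 0.06, Pola1 at −0.51 ± 0.18 and Mki67 at −0.46 ± 0.07, while Cenpf was at −0.39 ± 0.12 (limma adjusted p = 8.52e-05, 1.01e-06, 0.0168, 2.98e-05 and 0.00945). Most of the size of the rise lay in the untreated groups, where the median member was at −0.72, against 0.15 with doxycycline.

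**Figure D3:**
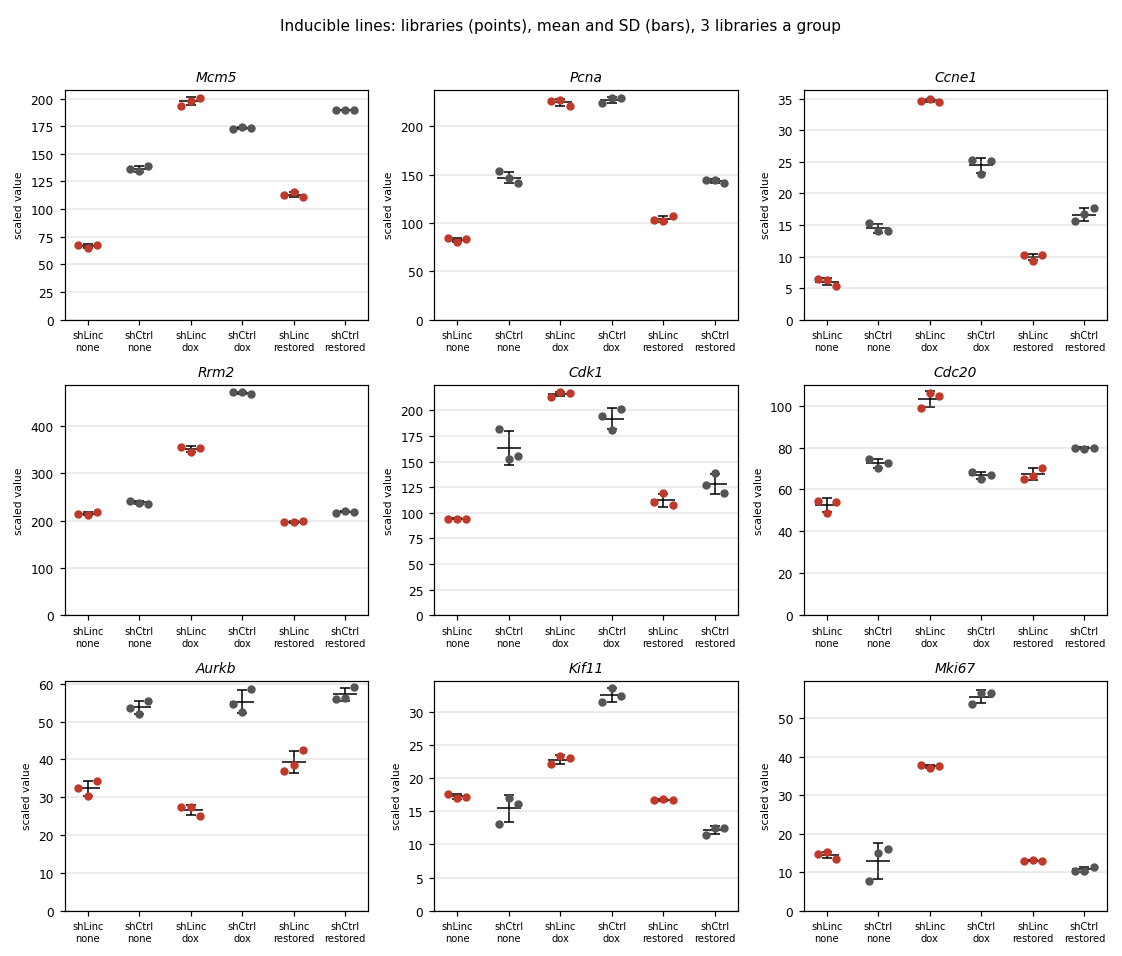
Scaled value of 9 members in each library of the inducible lines (points), with the mean and SD of 3 libraries (bars), shLinc in red and shCtrl in grey, for no doxycycline, doxycycline and Restored. Mcm5, Pcna and Ccne1 are lower in shLinc without doxycycline and in the Restored state, Aurkb is lower in shLinc in all 3 states, and 1 untreated shCtrl library of Mki67 lies at 7.67 below its 2 partners.

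In the Restored state shLinc was again lower than shCtrl for most members. Of 50 members 35 fell and 4 rose, against 32.1% and 25.7% of all genes, with a median of −0.43, and without scaling 27 fell and 9 rose. Among the replication members 25 fell and 0 rose, also at an unadjusted limma p below 0.05. Mcm5 had 122, 123 and 120 in shLinc against 183, 182 and 183 in shCtrl, Mcm3 88, 89 and 90 against 122, 123 and 122, and Pcna 111, 109 and 116 against 139, 139 and 136. Ccne1 had 11, 10 and 11 against 15, 16 and 17, and E2f1 20, 19 and 18 against 24, 25 and 25. None of these groups overlapped. The largest falls were those of Mybl2 (−0.94 ± 0.06), Pold1 (−0.83 ± 0.04), Uhrf1 (−0.80 ± 0.05) and Mcm2 (−0.78 ± 0.05), with limma adjusted p of 3.31e-10, 4.31e-11, 6.32e-10 and 2.73e-10.

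Fewer mitosis members were lower in the Restored comparison, 10 of 22, and 4 were higher, against 32.1% and 25.7% of all genes. The share that was higher was thus below that of all genes. Kif11 had 18, 18 and 18 in shLinc against 11, 12 and 12 in shCtrl (0.44 ± 0.07, limma adjusted p = 4.38e-05) and Bub1b 44, 45 and 43 against 31, 34 and 34 (0.25 ± 0.07, limma adjusted p = 0.00355). Cenpf, at 0.30 ± 0.12 (limma adjusted p = 0.0372), was lost without any 1 library of either group, at 0.29 to 0.30. Ccnb2, at 0.11 ± 0.04 (limma adjusted p = 0.0214), was lost without replicate 1 or 3 of either group, at 0.09 to 0.11. Mki67 had 14, 14 and 14 in shLinc against 10 to 11 in shCtrl, and Top2a 42 to 44 against 31 to 34. These groups did not overlap, with shLinc higher, but neither gene was called, at 0.24 to 0.26. Cdk1 had 119, 127 and 116 in shLinc against 122, 133 and 115 in shCtrl, overlapping before scaling, and its call (−0.19) was lost without replicate 2 of shCtrl or replicate 1 or 3 of shLinc. Plk1 had 86, 83 and 80 against 94, 88 and 88, Cdc20 70, 71 and 76 against 77, 76 and 77, and Foxm1 28, 28 and 27 against 32, 32 and 35. Rrm2 and Tpx2 were called lower but changed sign without scaling, and Tpx2 was also lost without any 1 library other than replicate 2 of shCtrl. Of 10 genes of G1 cyclins, kinases and mitogen response 7 fell and 0 rose, Ccnd1 to 219 ± 0.987 in shLinc, against 680 ± 2.83 in shCtrl, and Myc by 1.37.

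From Restored to doxycycline the hairpin difference rose for 35 members and fell for 8, against 31.7% and 28.8% of all genes, with a median of 0.51. It rose most for Pold1 (1.34 ± 0.06), Mybl2 (1.32 ± 0.08), Ccne1 (1.18 ± 0.09) and Uhrf1 (1.11 ± 0.07), and fell most for Kif11 (−0.93 ± 0.10), Mki67 (−0.81 ± 0.24), Cenpf (−0.79 ± 0.17) and Bub1 (−0.74 ± 0.12), with limma adjusted p between 1.48e-11 and 0.00810. Without scaling 28 rose and 12 fell. This comparison and the one from none to doxycycline share the doxycycline libraries.

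Within each line, the Restored libraries were lower than the doxycycline libraries for most members. In shLinc 48 of 50 fell and 1 rose, against 38.0% and 34.2% of all genes, with a median of −0.80. Ccne2 fell by 1.71 ± 0.11, Ccne1 by 1.71 ± 0.07, Mki67 by 1.46 ± 0.17 and Cdc6 by 1.42 ± 0.05 (limma adjusted p = 1.74e-10, 3.07e-13, 1.06e-06 and 7.71e-14), and Aurkb was the 1 that rose (0.54 ± 0.06, limma adjusted p = 2.58e-07). In shCtrl 29 fell and 8 rose, against 34.2% and 39.6% of all genes, with a median of −0.19. The largest falls there were in 2 mitosis and 2 replication members. Mki67 had 10, 10 and 11 in Restored shCtrl against 51, 54 and 54 with doxycycline (−2.27 ± 0.17, limma adjusted p = 6.59e-09), and Ccne2, Bub1 and Pola1 fell by 2.03 ± 0.11, 1.65 ± 0.08 and 1.49 ± 0.12 (limma adjusted p = 2.78e-11, 2.01e-11 and 5.06e-09). Mcm5 had 183, 182 and 183 in Restored shCtrl against 164, 166 and 166 with doxycycline, so it did not return to its untreated 124, 134 and 138. Pold1 (0.59 ± 0.04), Espl1 (0.49 ± 0.08), Cdc20 (0.25 ± 0.04) and Bub1b (0.25 ± 0.07) rose (limma adjusted p = 1.75e-09, 2.21e-05, 7.07e-05 and 0.00236).

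The Restored state differed from no doxycycline in both lines. In shLinc 34 of 50 members rose and 6 fell, against 28.5% and 23.8% of all genes, with a median of 0.32. In shCtrl 21 rose and 17 fell, against 27.1% and 22.8% of all genes, with a median of 0.07, and without replicate 1 of untreated shCtrl 20 rose and 17 fell, with a median of 0.03 and with Cdc45 and Tyms as lost calls. Of the 28 replication members, 23 rose and 1 fell in shLinc, and 19 rose and 4 fell in shCtrl. Of the 22 mitosis members, 11 rose and 5 fell in shLinc, and 2 rose and 13 fell in shCtrl. Uhrf1 (0.81 ± 0.05), Cdc6 (0.80 ± 0.05), Tk1 (0.79 ± 0.04) and Rfc3 (0.77 ± 0.10) rose most in shLinc, with limma adjusted p of 8.93e-10, 7.62e-10, 2.17e-10 and 9.62e-06. Pole, a leading strand polymerase (0.57 ± 0.16), Uhrf1 (0.55 ± 0.05), Tk1 (0.53 ± 0.04) and Mcm7 (0.48 ± 0.03) rose most in shCtrl with all libraries, with limma adjusted p of 0.00656, 1.45e-07, 5.25e-08 and 1.32e-10. Pole had 23 to 26 in Restored shCtrl against 10 to 22 in untreated shCtrl, and without replicate 1 of the untreated group its rise was 0.28 ± 0.06 (limma adjusted p = 0.001004). Tk1 (0.57), Mcm7 (0.48), Mcm5 (0.47) and Uhrf1 (0.47) then rose most. Mki67, not called with all libraries at −0.19, was called lower without that library, at −0.50 ± 0.05 (limma adjusted p = 7.82e-07), and the fall of Top2a was 0.57 without it and 0.37 with it. Bub1 fell in both lines, by 0.59 ± 0.08 in shLinc and 0.62 ± 0.08 in shCtrl (limma adjusted p = 1.78e-05 and 1.23e-05), as did Tpx2, a spindle assembly factor, by 0.36 ± 0.04 and 0.47 ± 0.04 (limma adjusted p = 2.69e-07 and 1.56e-08).

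In the conventional lines shFalcor changed few members. Of 51 members 45 passed the count filter, and Mcm10, Cdc45, Cdc6, Mybl2, Ttk and Cenpf did not. Against shCtrl 2 members rose and 6 fell, against 25.5% and 26.0% of all 11871 genes, so both shares (4.44% and 13.3%) were below those of all genes. The median member was at −0.28. Rrm2, the small subunit of ribonucleotide reductase (chromosome 12, 24708241 to 24714146, plus strand), had 215, 161 and 242 counts under shFalcor against 706, 490 and 511 in shCtrl, or 32.0 ± 4.49 against 84.2 ± 2.82 CPM, the count scaled to library size (SD, n = 3 each; −1.43 ± 0.11 SE, edgeR adjusted p = 5.83e-09). Top2a had 49, 38 and 63 counts under shFalcor against 148, 104 and 144 (−1.38 ± 0.24, edgeR adjusted p = 2.60e-04). Mcm6 had 92, 59 and 143 counts against 234, 151 and 166 (−0.91 ± 0.14, edgeR adjusted p = 2.99e-05), and Gins2, a helicase cofactor, 2, 2 and 6 against 17, 14 and 13 (−2.12 ± 0.59, edgeR adjusted p = 0.00581).

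The other calls under shFalcor were smaller. Uhrf1 fell by 0.60 and Mcm4 by 0.46, calls that each were lost without replicate 1 or 2 of shCtrl or replicate 2 or 3 of shFalcor, and for Uhrf1 also without replicate 3 of shCtrl. DESeq2 made neither call. E2f1 rose, with 244, 193 and 337 counts under shFalcor against 187, 131 and 166 in shCtrl (0.70 ± 0.12, edgeR adjusted p = 1.36e-04). Rrm1 rose by 0.33 ± 0.10 (edgeR adjusted p = 0.0133) and was lost without replicate 1 of shCtrl, at 0.30, or replicate 3 of shFalcor, at 0.29. None of the 20 mitosis members tested rose, also at an unadjusted edgeR p below 0.05 and with DESeq2, and Top2a was the 1 that fell. Mki67 had 30, 12 and 50 counts under shFalcor against 71, 52 and 54 in shCtrl, groups that do not overlap in counts, and was not called. Pcna had 153, 124 and 199 against 163, 112 and 130, Cdk1 63, 43 and 113 against 119, 67 and 75, and Ccne1 14, 16 and 28 against 17, 23 and 22. These counts overlap between groups, although the CPM of Pcna do not, and none was called.

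Low counts limit the mitosis genes in these libraries. Ccnb1 had 9, 4 and 19 counts under shFalcor against 9, 6 and 21 in shCtrl, Plk1 7, 14 and 18 against 15, 13 and 20, Cdc20 17, 9 and 6 against 15, 12 and 14, and Foxm1 6, 2 and 9 against 17, 7 and 9. No difference was detectable for these 4 at this depth. Of 41 other replication genes 5 rose and 8 fell, and of 38 other mitosis genes 4 rose and 8 fell. Ckap2, a spindle microtubule protein, rose by 1.49 and Ccnf, cyclin F, by 1.204, while Rfc1, the large subunit of the clamp loader, fell by 1.01 and Ccnd1 by 1.24. The summed levels of 7 macrophage markers were 48.6 to 51.5 CPM under shFalcor against 3.44 to 5.21 CPM in shCtrl, with Ptprc, Adgre1, Clec4f, Vsig4 and Marco at 0 in both groups. Hepatocyte markers summed to 2038 to 2253 CPM under shFalcor against 2863 to 3068 CPM in shCtrl. Their part in the changes above was not tested.

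Under shZC3H11A the mitosis members rose. Against shCtrl 21 members rose and 4 fell, against 24.2% and 24.3% of all genes, with a median of 0.76. Of the 20 mitosis members tested 15 rose and 0 fell, also with 0 lower at an unadjusted edgeR p below 0.05 and with DESeq2, and their median was 1.46. The count filter accepts a gene that is high enough in any 1 group. Espl1 was at 0.509 CPM in shCtrl, 1.09 under shFalcor and 7.83 under shZC3H11A, and Ccnb2 at 0.913, 0.577 and 4.69. Both passed the filter through shZC3H11A. For such members a fall could hardly be called, so the 0 that fell says nothing about them. Of the 25 replication members 6 rose and 4 fell, with a median of 0.01. Espl1 (chromosome 15, 102296266 to 102324357, plus strand) had 63, 38 and 37 counts under shZC3H11A against 6, 1 and 4 in shCtrl (3.85 ± 0.45 SE, edgeR adjusted p = 1.25e-06). Ccnb2, which encodes cyclin B2, had 40, 24 and 19 counts against 3, 7 and 7 (2.43 ± 0.49, edgeR adjusted p = 5.21e-04). Mcm5 had 51, 23 and 22 against 6, 8 and 6 (2.41 ± 0.46, edgeR adjusted p = 2.78e-04). Ccna2, which encodes cyclin A2, had 50, 22 and 15 against 2, 4 and 16 (2.09 ± 0.76, edgeR adjusted p = 0.0381), and its call was lost without replicate 1 or 2 of either group, at 1.51 to 2.09, and stood at 3.43 without replicate 3 of shCtrl.

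Proliferation markers were among the rises. Mki67 (chromosome 7, 135689784 to 135716361, minus strand) had 262, 208 and 75 counts under shZC3H11A against 71, 52 and 54 in shCtrl, Top2a 386, 224 and 155 against 148, 104 and 144, and Foxm1 37, 37 and 22 against 17, 7 and 9. The groups did not overlap for these 3 genes, and replicate 3 of shZC3H11A was the lowest in each. Kif20a, a motor of cytokinesis, rose by 1.98, Kif11 by 1.79, Cenpe by 1.54 and Ccne1 by 1.30, of which Cenpe was lost without replicate 2 of shZC3H11A. Ttk, the checkpoint kinase Mps1, had 12, 12 and 4 counts under shZC3H11A and 0 in all 3 shCtrl libraries, so it was at least 10.9-fold higher against a floor of 3 counts over the group. Plk1 had 40, 22 and 21 against 15, 13 and 20, Cdc20 44, 16 and 18 against 15, 12 and 14, and Ccnb1 38, 27 and 22 against 9, 6 and 21. Of these 3 Ccnb1 was called (1.47, and 2.24 without replicate 3 of shCtrl), and not without replicate 1 or 2 of shCtrl or replicate 2 of shZC3H11A.

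Under shZC3H11A 4 of 45 members fell (8.89%), below the 24.3% of all genes, and all 4 were replication members. Of the 25 replication members tested 6 rose, among them Mcm5 and Ccne1. Neither the share that rose nor the share that fell was above the 24.2% and 24.3% of all genes. Cdt1, the loader of the helicase, had 95, 75 and 75 counts under shZC3H11A against 322, 194 and 239 in shCtrl (−1.37 ± 0.13, edgeR adjusted p = 9.54e-08). E2f1 had 87, 59 and 67 against 187, 131 and 166 (−0.95 ± 0.14, edgeR adjusted p = 1.77e-05). Rrm1 fell by 0.59 ± 0.11 (edgeR adjusted p = 2.35e-04). Mcm6 fell by 0.34 ± 0.14 (edgeR adjusted p = 0.0444), a call that DESeq2 did not make and that was lost when any 1 of the 6 libraries other than replicate 3 of shZC3H11A was left out. Rrm2 had 706, 378 and 464 counts against 706, 490 and 511 and Pcna 154, 87 and 65 against 163, 112 and 130, with overlapping groups and no call for either. Of 38 other mitosis genes 20 rose and 0 fell, and of 41 other replication genes 10 rose and 5 fell. Kif18b, a kinesin, rose by 1.83 and Bub3 by 0.59. Of 28 brakes on the cell cycle 7 rose and 8 fell, against 24.2% and 24.3% of all genes. Among those that fell, Ccng1, cyclin G1 and a target of p53, fell by 2.604. Rbl2, the p130 protein of the DREAM complex, fell by 1.05. Macrophage markers summed to 5.05 to 8.58 CPM under shZC3H11A against 3.44 to 5.21 CPM in shCtrl.

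**Figure D4:**
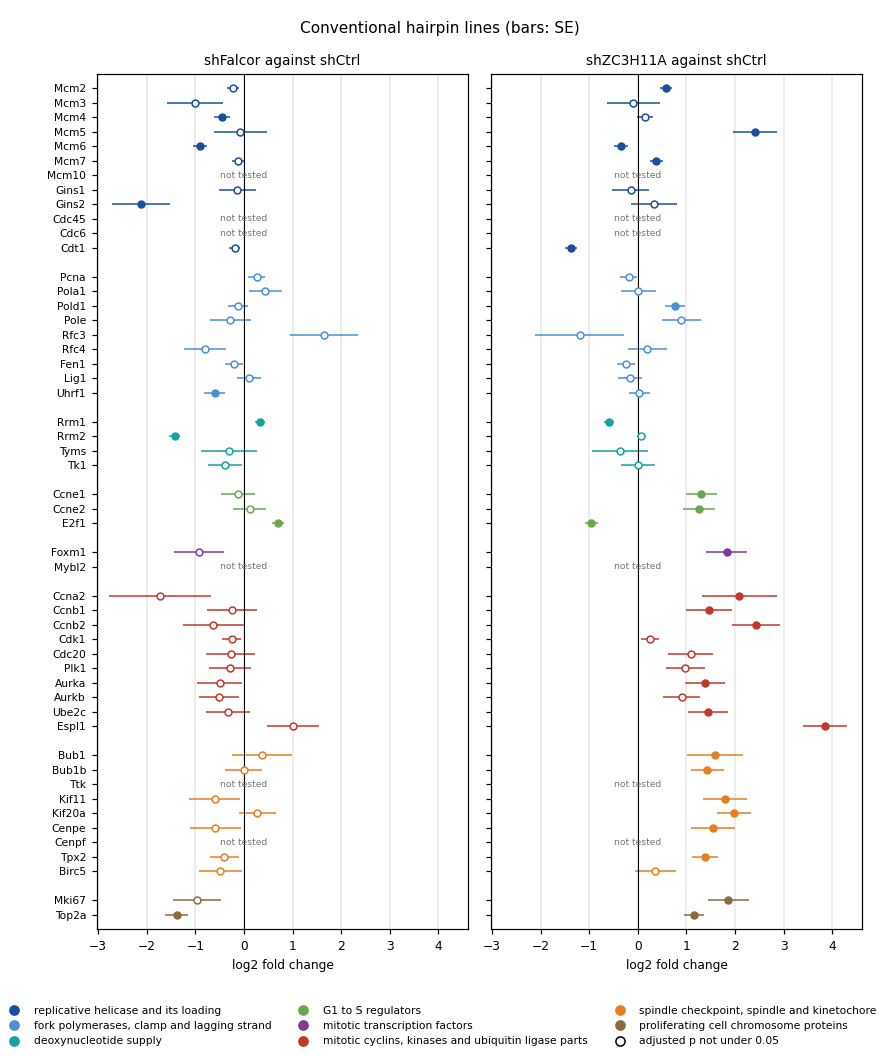
Log2 fold change of shFalcor (left) and shZC3H11A (right) over shCtrl for each member (rows, coloured by role). Bars are standard errors, filled points have an edgeR adjusted p below 0.05, and 6 members were not tested. Under shFalcor 8 points are filled, 6 of them left of 0, and under shZC3H11A 21 are filled right of 0, 15 of them mitosis genes.

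Set directly against each other, the knockdowns differed widely. Relative to shZC3H11A, 30 members were lower and 5 higher under shFalcor, against 28.6% and 28.4% of all genes, with a median of −1.18. Of the 20 mitosis members 18 were lower and 0 higher. Members such as Espl1 and Ccnb2 passed the count filter through shZC3H11A, so a higher call under shFalcor was hardly possible for them. Ccna2 (−3.81 ± 0.91), Ccnb2 (−3.06 ± 0.53), Espl1 (−2.84 ± 0.40) and Mki67 (−2.83 ± 0.46) were lowest, with edgeR adjusted p of 0.00289, 7.99e-05, 9.39e-06 and 7.57e-04. Ccna2 had counts of 0, 0 and 7 under shFalcor, so its size rested on the 1 library with counts, replicate 3. Higher under shFalcor were Rfc3 (2.84 ± 0.82), E2f1 (1.65 ± 0.13), Cdt1 (1.18 ± 0.13) and Rrm1 (0.92 ± 0.11), with edgeR adjusted p of 0.00744, 9.22e-09, 4.41e-07 and 1.15e-06, and the last was Pcna (0.46), which was lost without replicate 1 or 2 of shFalcor or replicate 3 of shZC3H11A and with DESeq2. E2f1, Rrm1 and Rrm2 were thus among the members that differed between the knockdowns. E2f1 and Rrm1 were above shCtrl under shFalcor and below it under shZC3H11A, and Rrm2 was below shCtrl under shFalcor, at 32.0 CPM, while it was 87.3 CPM under shZC3H11A against 84.2 CPM in shCtrl. The comparisons with shCtrl share the same 3 control libraries.

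**Figure D5:**
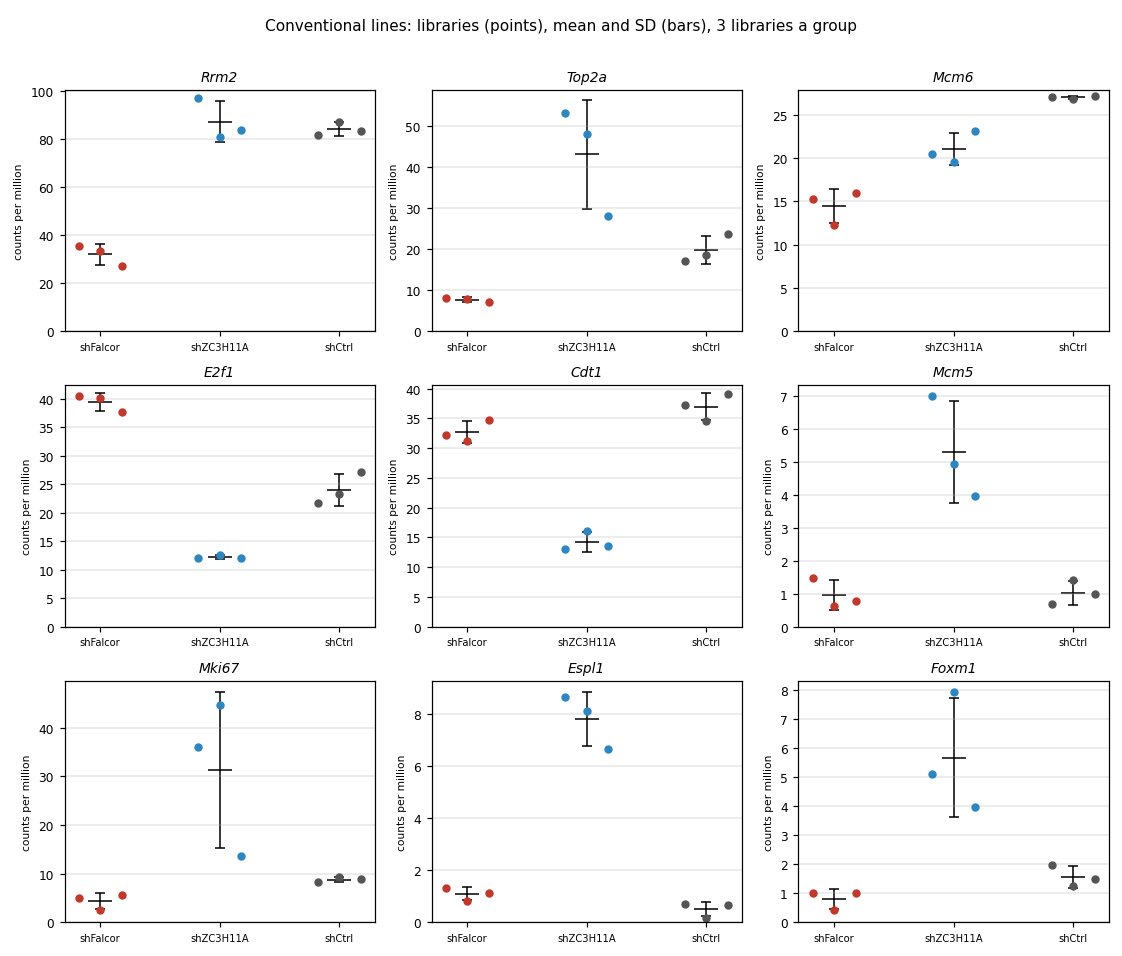
CPM of 9 members in each library of the conventional lines (points) with the mean and SD of 3 libraries (bars), for shFalcor, shZC3H11A and shCtrl. Rrm2, Top2a and Mcm6 are lowest under shFalcor, E2f1 is highest there, Cdt1 is lowest under shZC3H11A, and Mcm5, Mki67, Espl1 and Foxm1 are highest under shZC3H11A with a wide spread for Mki67.

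In liver few members were measurable. Of the 51, 22 were at 0 in every KO liver and 24 in every Ctrl liver on NCD, and 28 and 26 on HFD. Before scaling, the summed members reached 68 to 80 in KO against 56 to 66 in Ctrl livers on NCD. Scaling narrows that gap, since a deposited value of 1 became on average 1.07 in Ctrl and 0.937 in KO livers. On HFD the sums were 6 to 36 in KO against 19 to 46 in Ctrl, whereas the inducible AML12 libraries summed to 2047 to 3888. The lowest HFD sum was that of KO replicate 6, with 9369 genes above 0 against 12489 to 13727 in the other KO livers. Only Pcna, Tk1 and Mcm7 passed the filter on NCD and only Pcna and Tk1 on HFD, so nothing can be said of the mitosis members there. None was called by limma, while 4.16% of all 9536 genes rose and 1.81% fell on NCD, and 0.0324% of all 6176 genes rose and 0.0162% fell on HFD. At an unadjusted p below 0.05 the number was also 0 in both diets.

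Pcna had deposited values of 11, 13, 15 and 14 in KO against 11, 14, 13 and 13 in Ctrl livers on NCD (−0.13 ± 0.08, limma adjusted p = 0.310). On HFD it ranged over 2 to 7 in KO and 4 to 8 in Ctrl, with medians of 5.5 and 5 (−0.16 ± 0.09, limma adjusted p = 0.508). Tk1 had 22, 17, 12 and 23 in KO against 16, 16, 10 and 18 in Ctrl livers on NCD (0.09 ± 0.25, limma adjusted p = 0.828), and 2 to 8 in KO against 3 to 12 in Ctrl on HFD (−0.35 ± 0.29, limma adjusted p = 0.662). Mcm7 had 5, 5, 5 and 6 in KO against 5, 4, 4 and 5 in Ctrl livers on NCD (0.03 ± 0.12, limma adjusted p = 0.896). The groups overlapped for each of these genes on each diet. Fen1, the flap nuclease of the lagging strand, and Mcm10 were at 1 to 4 on NCD, below the filter. Of other replication genes tested, 0 of 14 were called on NCD and 0 of 5 on HFD by limma, and of other mitosis genes 0 of 5 and 0 of 2. Macrophage markers summed to 58.6 to 82.4 in KO against 74.0 to 138 in Ctrl livers on NCD and to 13.7 to 41.2 against 17.03 to 41.5 on HFD, and their part was not tested.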

How the data were processed

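Libraries were strand-specific after rRNA depletion, per the labels' protocols. Names that appear in the submitters' processing notes are mm10, kallisto and DESeq2, without role or version. The conventional table holds deposited counts. The inducible and liver tables hold deposited whole numbers treated as a score, since they look normalized by the authors and rounded. They were planned as possible counts and tested with limma (3.58.1, trend, robust) on log2(value / TMM factor + 1) for genes with a mean of at least 3. Counts were tested with edgeR (4.0.16) quasi-likelihood after filterByExpr and TMM, and DESeq2 (1.42.0) was an alternative. All groups of a table shared 1 fit, p-values were adjusted over all genes tested in each of 16 comparisons, and the scripts were tested on simulated data. Tables were not joined. Since no label says that cell line replicates were separate cultures, the spread that p-values measure may be technical. Of the liver controls, 4 columns could be assigned to a group only.

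Members, gene lists and roles were chosen with earlier results of these data known. Any member could be named with values. Full statistics went to the called members with the largest changes, at most 4 in each direction, per-library values mainly to 13 members, and other listed genes were named from the 4 with the smallest p.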

Additional observations from a re-analysis of the deposited data

Results flagged for a closer look

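The difference between shLinc and shCtrl was not the same with and without doxycycline, by a test of the difference itself in the limma fit. From none to doxycycline it rose for 39 members and fell for 9. The values were 1.68 for Mybl2, 1.63 for Ccne1, 1.53 for Cdc6 and 1.44 for Pold1, and −0.77 for Mki67, −0.71 for Bub1, −0.65 for Kif11 and −0.56 for Cenpf. Without replicate 1 of untreated shCtrl, in which Mki67 was at 7 against 15 and 16, the falls were −0.46 for Mki67, −0.65 for Bub1, −0.55 for Kif11 and −0.39 for Cenpf, so Mki67 was no longer first. From Restored to doxycycline it rose for 35 members and fell for 8. The values were 1.34 for Pold1, 1.32 for Mybl2, 1.18 for Ccne1 and 1.11 for Uhrf1, and −0.93 for Kif11, −0.81 for Mki67, −0.79 for Cenpf and −0.74 for Bub1. Both differences share the doxycycline libraries. Both also followed transcript length across 9582 genes (Spearman −0.35 from none and −0.29 from Restored), and the part of length was not tested. Falcor itself was higher in shLinc than in shCtrl in the untreated and Restored groups. In the liver groups no library of Pcna, Tk1 or Mcm7 stood apart from its group by Dixon's test. With 4 to 6 libraries per group this test can find little, and it covered only these genes. HFD KO replicate 6 had 9369 genes above 0, against 12489 to 13727 in the other KO livers on HFD.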

How the results depend on the processing

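Counts of members called higher or lower moved by more than 1.5 times in 14 pairings of a count with a setting. Called members that changed sign did so without scaling: Rrm2 without doxycycline, Rrm2 and Tpx2 in the Restored state, and Ccnb2 and Bub1b for doxycycline in shLinc. Without scaling, 3 members rose without doxycycline and 9 rose in the Restored state, against 0 and 4. With a mean of at least 10, falling members numbered 8 under doxycycline, and 5 each for the hairpin difference from none and from Restored to doxycycline, where fewer genes were tested. With no filter, 1 member, Cdc45, was called higher in NCD knockout liver. Its deposited value was 1 in every KO liver and 0 in every Ctrl liver, the smallest step between whole numbers, so the call is exposed to rounding. Leaving out 1 library at a time gave 0 to 3 members higher without doxycycline, 2 to 3 in the Restored state and 1 to 3 under conventional shFalcor. Libraries were not treated as paired, since in none of 12 comparisons did every same-numbered pair correlate over 0.1. This cutoff does not exclude pairing. All 3 libraries correlated best with their own number in the hairpin comparison under doxycycline and in shZC3H11A against shCtrl. The same held in shCtrl for doxycycline against none and for Restored against none. With the replicate block, 1 member was higher without doxycycline, and the other counts stayed within 1.5 times. In liver, a replicate block over the libraries whose titles share a number (4 on NCD and 6 on HFD), chosen after seeing the data, called 0 members by limma in either direction, also at an unadjusted p below 0.05. On HFD, no member had a mean of at least 10, so that setting gave no value. Depth is unknown outside the conventional table, where the median member averaged 2.75 CPM in shCtrl. The causes were not tested.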

Other observations

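In the conventional table Mcm3 and Mcm5 were low beside the other subunits of the same helicase ring. Per kilobase of transcript, Mcm5 was at 0.285 CPM under shFalcor, 1.57 CPM under shZC3H11A and 0.306 CPM in shCtrl, and Mcm3 at 0.358, 0.656 and 0.735 CPM. In the same groups Mcm2 was at 7.94, 13.4 and 9.10 CPM per kilobase and Mcm7 at 12.1, 16.7 and 13.1. In the inducible table, which is not on the same scale, untreated shCtrl libraries averaged 40.4 per kilobase for Mcm5, 36.1 for Mcm3 and 23.55 for Mcm2 (136, 109 and 79.4 before dividing by length). The cause was not tested.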
